A study of Bos taurus with 48 samples.

Results

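CCL5 (ENSBTAG00000007191) and CCL3 (ENSBTAG00000025250), together with a second gene that the study also lists as CCL3 (ENSBTAG00000003289), are the CC chemokine genes described here, 3 of the 24616 genes counted in bovine whole blood. They were chosen by their measured difference between breeds, since the study lists them with lower transcription in Jersey (J) than in Holstein-Friesian (H-F) calves, so their difference between the breeds is given as a description and was not tested. Whole blood RNA was sequenced from 8 H-F and 8 J bull calves at 3 times, d -14, d 1 and d 8 (weaning on d 0), that is, before milk replacer was withdrawn stepwise, just after weaning and a week later. All calves of both breeds were healthy, group housed, artificially reared, immunised on arrival and weaned, so there was no group that stayed on milk. The H-F calves came from 1 farm and the J calves from 2 farms, and the J calves were older at enrolment, so breed, farm and age cannot be told apart. The J calves also had greater passive immunity from their dams. Before weaning they were offered concentrate without limit, and the H-F calves a set allowance that the study states they never ate in full. These too cannot be told apart from breed. J calf 85, whose libraries stood apart, was left out of the 45 libraries tested, as set out below, and its values are given separately.

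Chemokines are small secreted proteins that guide leukocytes through G protein-coupled receptors. CCL5, also called RANTES, is made by activated T cells and natural killer cells and is stored in the granules of platelets. CCL3, also called MIP-1 alpha, is released mainly by monocytes, macrophages, neutrophils and lymphocytes when they are activated. Their receptors are carried by monocytes, T cells and other leukocytes. In the RefSeq annotation of the ARS-UCD2.0 cattle genome, CCL3 and CCL5 lie in the same stretch of a chromosome, with CCL14, CCL16 and loci without a gene name between them, and that annotation holds a single gene named CCL3. The second CCL3 gene is therefore named here only as the study named it. Because near-identical copies can share reads and only uniquely mapped reads were counted, the split of reads between the CCL3 genes is uncertain.

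The libraries held between 28088019 and 39095624 reads counted in genes and spike-in sequences together (median 33666332). CCL5 was counted with 477 to 2346 reads in each of the 45 libraries, CCL3 with 42 to 291 and the second CCL3 gene with 10 to 114. Levels are given as CPM (reads of a gene scaled to a common library size), with TMM factors, and they were not compared between genes because transcript lengths were not used. The libraries of J calf 85 had a mean leading log2 fold change of 2.09 from the other J libraries, against 1.82 to 1.96 for the other J calves. In bulk blood, fewer cells of a type and less RNA per cell cannot be told apart.

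CCL5 was lower in the J calves on each day. On d -14 the H-F calves ranged from 24.0 to 63.2 CPM (median 45.9) and the J calves from 14.3 to 29.0 CPM (median 21.3). On d 1 the H-F range was 25.1 to 61.2 CPM (median 40.3) and the J range 13.9 to 26.1 CPM (median 19.4). On d 8 the H-F calves had 31.4 to 73.6 CPM (median 41.6) and the J calves 14.3 to 23.9 CPM (median 22.7). The breeds did not overlap on d 8, while on d -14 and on d 1 a single J calf, calf 6 on both days, lay above the lowest H-F calf. The share of all genes tested without overlap was not counted, here or for the CCL3 genes, so overlap is a description. The log2 fold change of J relative to H-F was -1.13 (SE 0.203) on d -14, -1.12 (SE 0.203) on d 1 and -1.16 (SE 0.203) on d 8. These values belong to the contrast that chose the gene, in which 4.1% of the 12677 genes tested were differentially expressed genes (DEG) on d -14, 3.73% on d 1 and 3.13% on d 8, at an adjusted p below 0.1 and a fold change of at least 1.5.

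CCL3 had the same order at a lower count. On d -14 the H-F calves had 1.95 to 5.51 CPM (median 4.05) and the J calves 1.39 to 3.25 CPM (median 1.77). On d 1 the H-F calves had 2.18 to 6.36 CPM (median 4.76) and the J calves 1.62 to 3.16 CPM (median 2.28). On d 8 the H-F calves had 3.53 to 8.84 CPM (median 4.22) and the J calves 1.97 to 3.53 CPM (median 2.11). The breeds overlapped on d -14 and d 1, with 3 and 4 J calves above the lowest H-F calf. On d 8 they did not overlap, but the lowest H-F calf (calf 56, 3.529 CPM) and the highest J calf (calf 9, 3.527 CPM) differed by far less than counting error. The log2 fold changes of J relative to H-F were -0.90 (SE 0.243), -1.01 (SE 0.242) and -1.06 (SE 0.241) in the same order of days.

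The second CCL3 gene was close to the detection filter of 1 CPM in at least 8 libraries. It exceeded 1 CPM in 19 of 24 H-F libraries and in 5 of 21 J libraries, so it passed the filter through the breed in which it was higher. On d -14 the H-F calves had 0.998 to 1.64 CPM (median 1.21) and the J calves 0.373 to 1.36 CPM (median 0.911). On d 1 the H-F range was 0.847 to 3.26 CPM (median 1.24) and the J range 0.379 to 1.81 CPM (median 0.770). On d 8 the H-F range was 0.470 to 2.04 CPM (median 1.38) and the J range 0.315 to 0.789 CPM (median 0.600). The breeds overlapped on every day, with 2 J calves above the lowest H-F calf on d -14, 3 on d 1 and 4 on d 8. The log2 fold change of J relative to H-F was -0.58 (SE 0.322) on d -14, -0.86 (SE 0.318) on d 1 and -1.27 (SE 0.332) on d 8. The d 1 value was -0.26 when J calf 85 was included, because that calf had 4.69 CPM (127 reads) on d 1, the highest level of the gene in any of the 48 libraries.

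**Figure D1:**
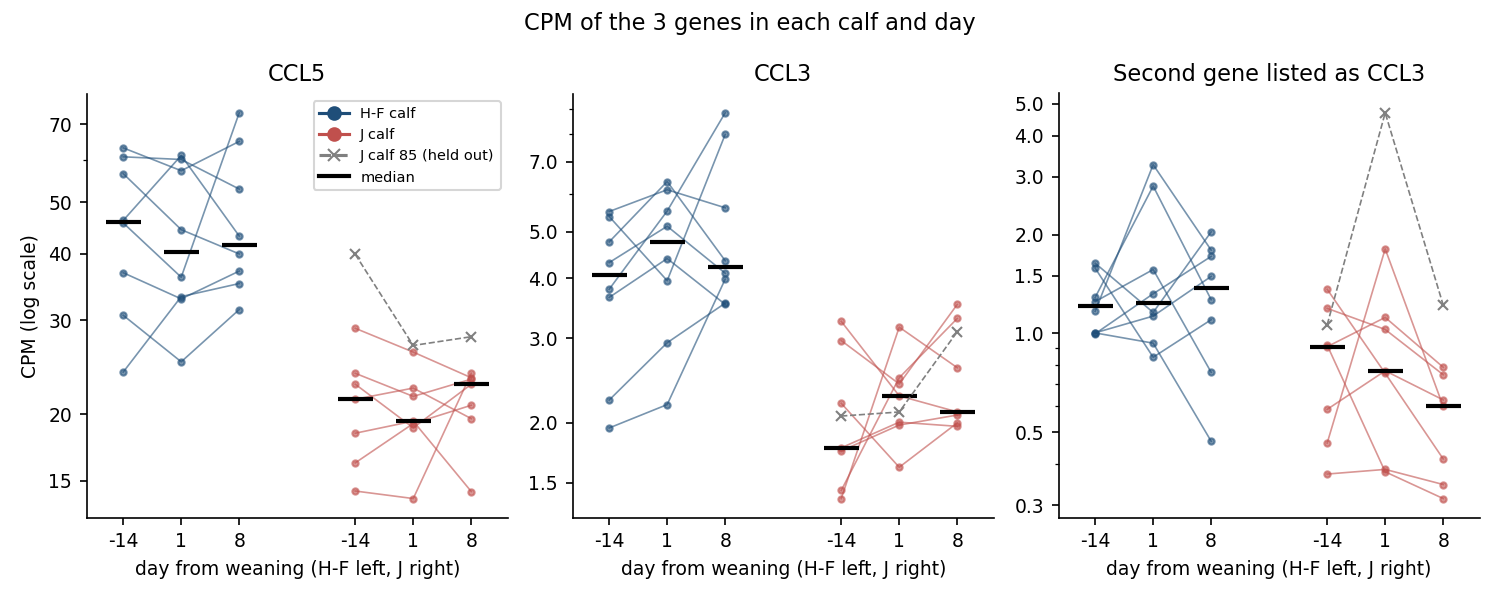
CPM of CCL5, CCL3 and the second CCL3 gene (log axis) in each calf at the 3 times, with 1 line per calf, 8 H-F calves in blue, 7 J calves in red, medians as black bars and J calf 85 in grey. H-F medians of CCL5 lie between 40.3 and 45.9 CPM and J medians between 19.4 and 22.7 CPM, and the grey line of the second CCL3 gene peaks at 4.69 CPM on d 1.

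The comparison of days described how the levels of these genes differed between sampling times. From d -14 to the later days every calf was weaned and grew older, so weaning, diet and age cannot be told apart. The day contrast was not used to choose CCL5 and CCL3. For the second CCL3 gene the day entered the choice, so its 6 comparisons are a description. No change between days was called for any of the 3 genes in either breed, in 18 comparisons (6 per gene) by the quasi-likelihood test of edgeR, and 1 of the 18 had an unadjusted p under 0.05. The exact test, DESeq2 and limma-voom also called 0 of 18, each with 1 unadjusted p under 0.05. With each calf as its own control, 0 of 18 were called and 2 had an unadjusted p under 0.05. Over all genes tested, the share called was 0.071% in H-F from d -14 to d 8 (1.08% with calf as block) and 0% in each of the other 5 comparisons of days. With calf as block these were 0.252% in H-F from d -14 to d 1, 0.0552% and 0.205% in J from d -14 to d 1 and from d -14 to d 8, and 0% from d 1 to d 8 in both breeds.

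CCL5 moved least between days. In H-F calves its log2 fold change was -0.06 (95% interval -0.44 to 0.33) from d -14 to d 1 and 0.06 (95% interval -0.33 to 0.44) from d -14 to d 8. In J calves it was -0.04 (95% interval -0.46 to 0.37) from d -14 to d 1 and 0.02 (95% interval -0.40 to 0.44) from d -14 to d 8. All these intervals, from the fit without calf as block, lie inside the 1.5-fold threshold used for DEG, which is 0.585 on the log2 scale. From d -14 to d 8 the level was higher in 5 of 8 H-F calves and in 2 of 7 J calves, and the changes of single calves ran from -0.50 to 0.69 in H-F and from -0.36 to 0.73 in J on the log2 scale.

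CCL3 had its widest day difference in the H-F calves. From d -14 to d 8 the log2 fold change was 0.41 (95% interval -0.05 to 0.87), which missed the threshold with an adjusted p of 0.495 by edgeR. With calf as block it was 0.42 with an adjusted p of 0.106 by edgeR, also above the threshold. The level was higher on d 8 in 5 of 8 H-F calves, with calf 33 rising by 1.22 on the log2 scale from 3.79 to 8.84 CPM and calf 49 at the other end with -0.13. From d -14 to d 1 it was higher in 7 of 8 H-F calves, with a log2 fold change of 0.21 (95% interval -0.25 to 0.67). In J calves the change from d -14 to d 8 was 0.25 (95% interval -0.26 to 0.76), with 5 of 7 calves higher on d 8. The upper bounds from d -14 to d 8 reach beyond 1.5-fold in both breeds, so a change of that size in CCL3 lies within the intervals.

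The second CCL3 gene was lower on d 8 than on d 1 in all 7 J calves. The log2 fold change was -0.70 (95% interval -1.40 to -0.0015) and was not called. It was the 1 of the 18 comparisons with an unadjusted p under 0.05 by edgeR. The gene passed the filter through the H-F calves, with 5 of 21 J libraries over 1 CPM, so this J change is a description. The single calves ran from -1.59 in calf 7 to -0.15 in calf 60. Without calf 7 the J change from d -14 to d 1 was -0.27 in place of 0.11, and with J calf 85 included it was 0.66 and the J change from d 1 to d 8 was -1.09. In H-F calves 4 of 8 were lower on d 8 than on d 1, and the log2 fold change was -0.29 (95% interval -0.89 to 0.32).

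**Figure D2:**
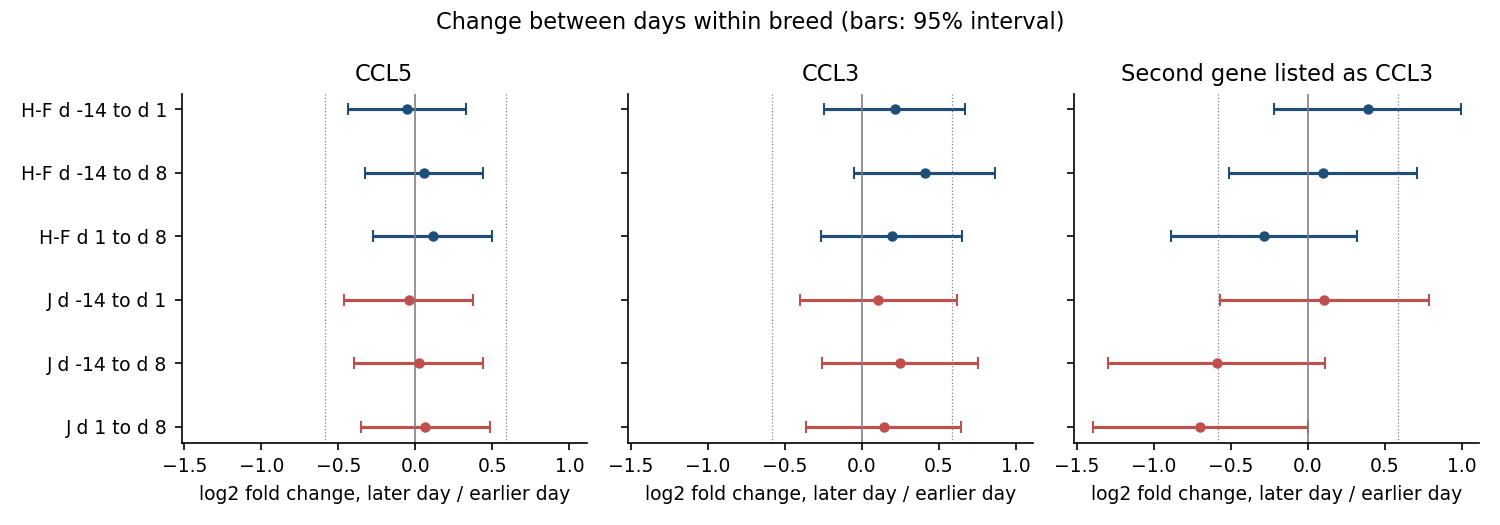
Log2 fold change of the later against the earlier day (x axis) for CCL5, CCL3 and the second CCL3 gene in each breed, with 95% intervals as bars and dotted lines at a fold change of 1.5. The CCL5 intervals lie between the dotted lines, while those of the second CCL3 gene in J calves from d -14 and d 1 to d 8 reach beyond the lower one.

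The breed difference was also compared between days. For CCL5 the log2 difference between J and H-F in the change from d -14 was 0.01 (SE 0.281) for d 1 and -0.04 (SE 0.281) for d 8. For CCL3 it was -0.11 (SE 0.339) for d 1 and -0.16 (SE 0.338) for d 8. Both genes were listed by the study with a breed difference on all 3 days, a choice that favours a small interaction, so the 0 calls among these 4 (edgeR, DESeq2 and limma-voom, with 0 unadjusted p under 0.05) are no evidence that the breed difference stayed the same. The share of all genes with an interaction was 0% for d 1 and for d 8, and 0.0158% for d 8 with calf as block. Intervals of the interaction spanned -0.56 to 0.58 for CCL5 on d 1 and -0.84 to 0.52 for CCL3 on d 8, so changes of the breed difference up to those amounts lay within the intervals. For the second CCL3 gene the day entered the choice of the gene, and its interaction for d 8 of -0.69 (SE 0.460) is a description.

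More of the spread in CCL5 lay between calves of a breed than between days of a calf, by its point estimate. After the means of breed and day were removed, 58.6% (jackknife SE 16.1 over 15 calves) of the variance of log2 CPM lay between calves for CCL5. The share was 41.2% (SE 18.5) for CCL3 and 24.6% (SE 19.2) for the second CCL3 gene, and the median over all genes tested was 42.6%. Counting error made up 3.40% of the variance within calves for CCL5, 17.1% for CCL3 and 27.7% for the second CCL3 gene. The errors of the 3 shares overlap, and the median gene lies within 1 SE of each of them.

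The H-F calves with high and low CCL5 were much the same on each day. H-F calf 48 averaged 61.8 CPM over the days and ranked among the top 3 each time, and calf 20 averaged 57.9 CPM and also stayed in the top 3. H-F calf 56 averaged 29.0 CPM and was last or next to last each time. Other calves moved more. Calf 49 ranked 4 on d -14, 1 on d 1 and 4 on d 8. Calf 25 ranked 5 on d -14 and d 1 and had the highest level of all, 73.6 CPM, on d 8. Spearman's rho between days over the 8 H-F calves was 0.64 to 0.76. In J calves rho was 0.71 between d -14 and d 1 but 0.14 between d -14 and d 8 and -0.18 between d 1 and d 8. J calf 77 was lowest of 7 on d -14 and d 1 and highest on d 8. For CCL3 the H-F calves 25 and 27 were the lowest on d -14 and d 1 (calf 25 averaged 2.71 CPM over the days and calf 27 averaged 2.91), and rho between days was 0.48 to 0.69. Over the 7 J calves rho for CCL3 ran from -0.43 to 0.75. These rho values are descriptions over calves and carry no test.

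**Figure D3:**
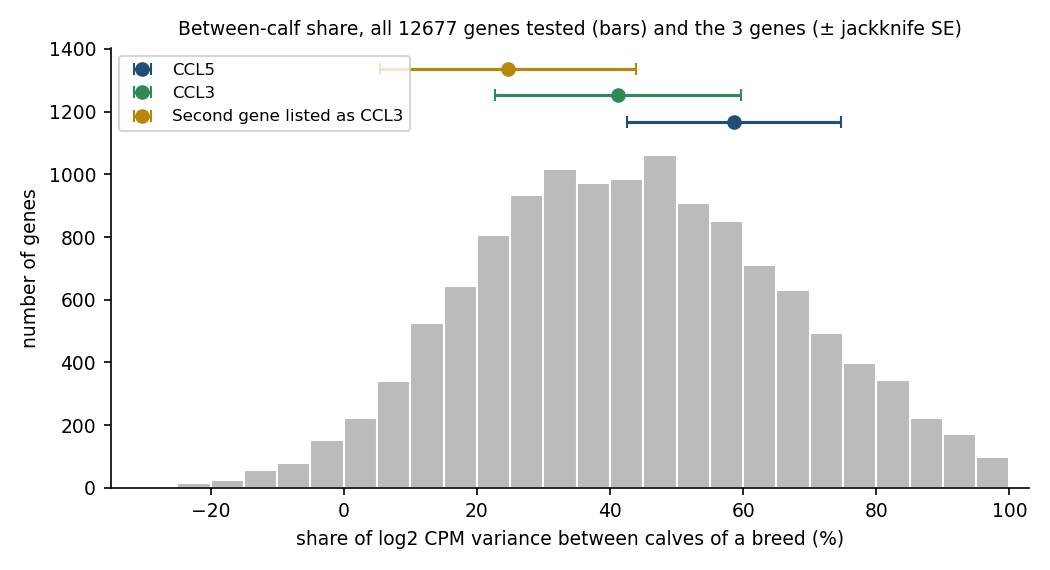
Share of the variance of log2 CPM that lay between calves of a breed (x axis, %), as the number of genes in steps of 5 percentage points (bars) and for the 3 chemokine genes (points, with jackknife SE over calves). CCL5 lies at 58.6%, CCL3 at 41.2% and the second CCL3 gene at 24.6%, each with an error that spans much of the distribution.

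Across calves, the 3 genes were compared by their means over the days, within each breed. CCL5 and CCL3 had a Pearson r of 0.42 (Spearman's rho 0.55, exact permutation p = 0.296 for r) over the 8 H-F calves. Over the 7 J calves r was 0.70 (rho 0.71, exact permutation p = 0.0867 for r and 0.0881 for rho). Both had an adjusted p of 0.410 over the 6 exact permutation tests. Without calves 27 and 56, the H-F calves farthest from the median of CCL5, r fell to 0.03, so the H-F value rests on those calves, and without J calves 6 and 77 r was 0.65. On single days r ran from 0.18 to 0.64 in H-F calves, and in J calves it was 0.65 on d -14, 0.13 on d 1 and 0.43 on d 8. H-F calf 25 departed from the rest, with the lowest mean CCL3 of the H-F calves and a CCL5 mean of 51.8 CPM. CCL5 and the second CCL3 gene had r of 0.39 in H-F and -0.52 in J calves, and the CCL3 genes had r of 0.44 in H-F and 0.04 in J calves. None of these 4 passed either (adjusted p from 0.410 to 0.914 for r, exact permutation tests, two-sided), and 0 of 6 had an unadjusted p under 0.05 for r or rho. The changes of each calf from d -14 to d 8 were also compared, and 0 of 6 pairs passed, with r between -0.55 and 0.55 and the lowest exact permutation p at 0.171.

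**Figure D4:**
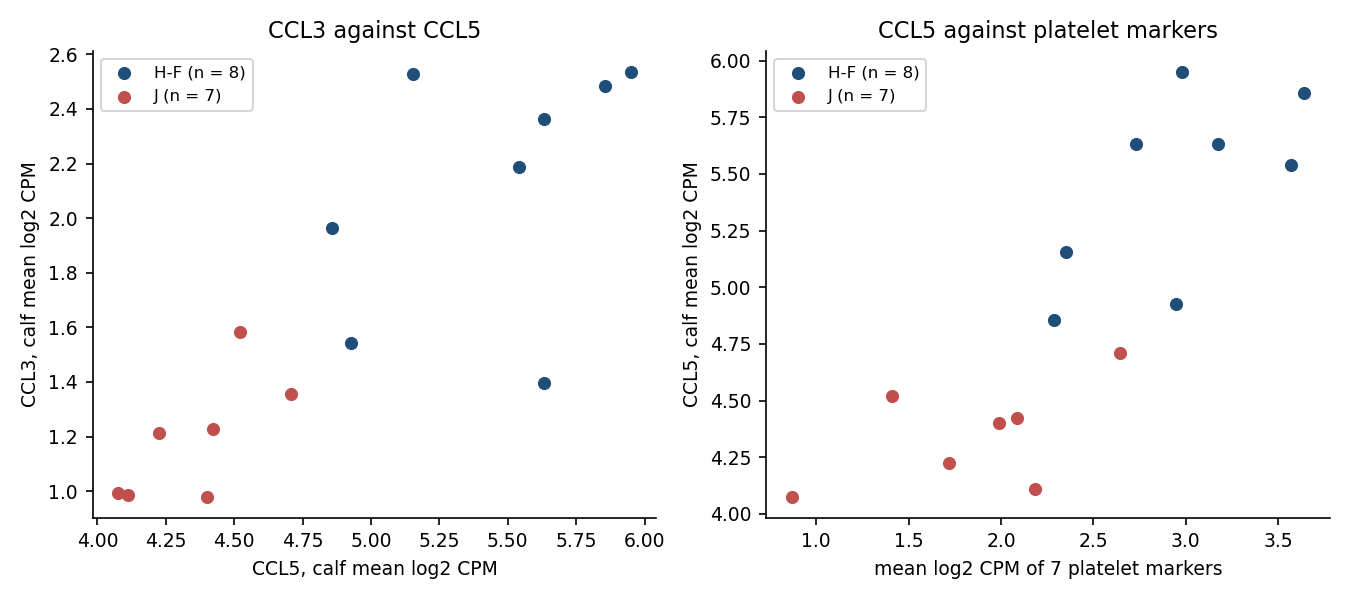
Means over the days of log2 CPM per calf, CCL3 against CCL5 (left) and CCL5 against the mean log2 CPM of 7 platelet marker genes (right), with 8 H-F calves in blue and 7 J calves in red. The breeds form separate clusters, so r was taken within breed, 0.42 and 0.70 on the left and 0.64 and 0.56 on the right for H-F and J.

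Genes of the same pathway and markers of the blood cells were read from lists of symbols. The symbols could be tied to genes only through the lists of breed DEG that the study drew from these samples, so the matched genes are not independent evidence of a breed difference. None of the 20 other CC chemokine ligands, 10 CC chemokine receptors, 5 atypical receptors or 18 regulators on the lists could be matched, and they were not analysed here. The lists of T cell and red cell markers had no match either. In all, 39 genes other than the 3 chemokines were matched and tested, of which 26 were breed DEG on d -14, 23 on d 1 and 17 on d 8.

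Among other chemokines and their receptors, 5 of 22 were matched. CXCL10, an interferon-induced chemokine for activated T cells, was lower in J calves on d -14 (log2 fold change -0.85, adjusted p 0.0514) and d 1 (-1.18, adjusted p 0.0105). CXCL5, a neutrophil chemokine, was lower on d 1 (-0.87, adjusted p 0.0298) and d 8 (-0.74, adjusted p 0.0728), and CXCL16 was lower on d -14 (-0.67, adjusted p 0.00184). CXCR5, the receptor that brings B cells to follicles, was higher on d -14 (0.64, adjusted p 0.0130), and CXCR2, a neutrophil receptor, had log2 fold changes from -0.65 to -0.32 and was not called on any day. On d 1 and d 8 CXCR5 had log2 fold changes of 0.51 and 0.51 (adjusted p 0.0452 and 0.0556). CXCL16 had -0.58 and -0.40 (adjusted p 0.00536 and 0.0538). On those days both genes passed the adjusted p and missed only the 1.5-fold threshold. The share of all genes lower in J was 2.52% on d -14, 1.84% on d 1 and 1.93% on d 8, and the share higher in J was 1.58%, 1.89% and 1.2%. The calls are by the quasi-likelihood test of edgeR, adjusted over all genes.

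Matched markers of cells that make or carry these chemokines are given beside them. As they could be matched only where the study had listed them as breed DEG, their counts and medians follow in part from that selection and are descriptions. All 7 matched platelet markers of 12 were lower in J calves by their point estimate on each day, and 4 were called on d -14, 6 on d 1 and 5 on d 8. Their median log2 fold change was -1.09, -1.23 and -1.25 (all genes tested, which were not selected in this way, had medians between -0.004 and 0.011). TREML1, a platelet granule receptor, was called on each day, as was PF4, the platelet chemokine also named CXCL4, at -0.82, -1.26 and -1.47. The summed CPM of the 7 genes was 240 to 847 in H-F libraries and 72.4 to 364 in J libraries, and none was at 0 in any library. Of 8 matched cytotoxic lymphocyte markers of 23, 6 were called lower in J on d -14, 4 on d 1 and 6 on d 8, with median log2 fold changes of -0.66, -0.62 and -0.71. These included GZMA and GZMM, granule proteases, and IL18RAP, a subunit of the interleukin 18 receptor, on each day, and their summed CPM was 80.0 to 145 in H-F and 53.4 to 85.4 in J libraries, with none at 0. The part of these cells in the breed difference of CCL5 and CCL3 was not tested.

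Among myeloid genes, 8 of 16 activation genes were matched, of which 4, 6 and 2 were called lower in J at the 3 times in order. EGR2 was lower on each day (-0.83, -0.84 and -0.76) and PTGS2, the inducible cyclooxygenase, on d -14 and d 1 (-1.02 and -0.78), while EGR3 was higher in J on d 1 (1.01). Their summed CPM was 124 to 315 in H-F and 93.8 to 157 in J libraries. MSR1, a macrophage scavenger receptor and the single matched monocyte marker of 10, was lower in J on each day, at -1.20, -1.24 and -1.38. The single matched neutrophil marker of 10 was CXCR2. Of 4 matched eosinophil markers of 8, 2 were called lower and PRG3 higher in J on d -14, 2 lower on d 1, and on d 8 SIGLEC8 lower and PRG3 higher. B cell markers went the other way, with 6 of 10 matched, of which 5 were called higher in J on d -14, among them MS4A1, a B cell surface antigen, and PAX5, a B cell transcription factor. On d 8 no B cell marker was called, and PAX5 had a log2 fold change of 0.52 (adjusted p 0.0571 by edgeR), below the 1.5-fold threshold.

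Within a breed, no correlation of a marker list with a chemokine gene passed after adjustment. The mean log2 CPM of each list with at least 3 matched genes (platelet, cytotoxic, eosinophil, B cell and myeloid activation genes) was set against each chemokine gene over the calf means. Of 30 exact permutation tests, 0 passed at an adjusted p under 0.05, and 1 had an unadjusted p under 0.05 for r and 1 for rho. That one was the eosinophil list and the second CCL3 gene in H-F calves, with r = 0.88 and rho = 0.74 (exact permutation p = 0.00449 for r, adjusted p = 0.135). The H-F r was 0.77 without calves 27 and 48. Over the J calves r was 0.03, and it was 0.78 without J calves 6 and 7. CCL5 and the platelet list had r of 0.64 (rho 0.60) in H-F (exact permutation p = 0.0955) and 0.56 (rho 0.43) in J calves (exact permutation p = 0.191), both with an adjusted p of 0.953. With J calf 85 included, r of CCL5 over the J calves was 0.44 with the platelet, 0.58 with the cytotoxic and 0.57 with the eosinophil list, and on d -14 alone r in H-F calves was 0.84 with the activation genes and 0.51 with the platelet list. For the calf means of CCL5 and the platelet list, r was 0.33 without H-F calves 20 and 56, and without J calves 6 and 77 it was -0.54, so the J relation rests on those calves. CCL5 with the cytotoxic list had r of 0.24 in H-F and 0.07 in J calves. CCL3 had r in H-F calves of 0.66 with the activation genes and 0.57 with the cytotoxic list, and in J calves r with these lists was 0.04 and 0.20. Changes per calf from d -14 to d 8 gave 30 further tests of the lists. Of these, 0 passed adjustment, with 2 unadjusted p under 0.05 for r and 3 for rho. Over H-F calves, r of the activation genes with CCL5 was -0.85 (exact permutation p = 0.0101). Over J calves, their r with CCL3 was 0.82 (exact permutation p = 0.0240). These were -0.59 without H-F calves 25 and 32, and 0.21 without J calves 13 and 57. For CCL5 and the platelet list, r of the changes was negative (H-F -0.36, J -0.21).

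**Figure D5:**
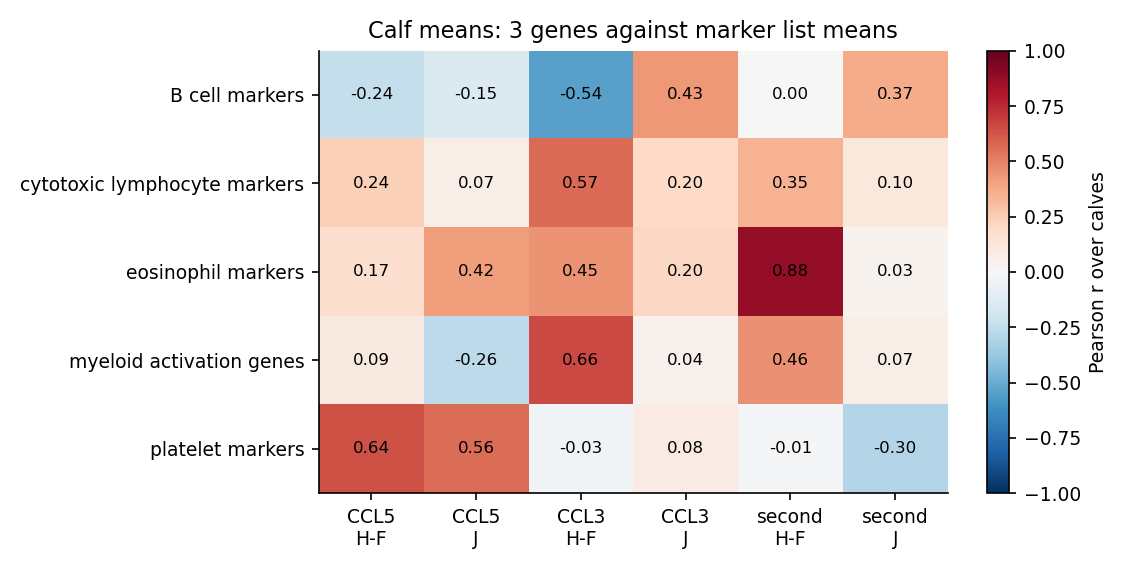
Pearson r over calf means (8 H-F or 7 J calves) between the 3 chemokine genes (columns, by breed) and the mean log2 CPM of 5 marker lists (rows), from -1 in blue to 1 in red. The highest value, 0.88 for the eosinophil list and the second CCL3 gene in H-F calves, stands beside 0.03 in J calves, and none of the 30 passed after adjustment. Without J calves 6 and 7 that J value was 0.78.

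Taken singly, the 7 platelet markers all had a positive r with CCL5 when the calf deviations from their breed means were pooled over the 15 calves, from 0.43 to 0.69 with a median of 0.47. The highest was PPBP, the platelet basic protein, a CXC chemokine, with 0.75 in H-F and 0.53 in J calves. The platelet genes share libraries and depth with each other, so they are not 7 separate observations. Between libraries of the same calf the median r of these genes with CCL5 was 0.07, with 4 of 7 positive. With CCL3 the platelet markers had a median pooled r of -0.04 and 3 of 7 were positive. CXCL5 had a pooled r of 0.52 with CCL5 and 0.09 with CCL3, and CXCL10 had -0.10 and -0.56. The r of CXCL10 with CCL3 was -0.73 in H-F and 0.02 in J calves, and 0.39 between libraries of the same calf.

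Over all 12676 other genes, the 10 with the highest pooled r with CCL5 had 0.74 to 0.85, against a quartile range of -0.21 to 0.18. Those with a symbol were FHL1 (0.77, with 0.82 in H-F and 0.66 in J calves), REEP2 (0.76, with 0.88 and 0.67) and DYNLT1 (0.74, with 0.91 and 0.31). Their r between libraries of the same calf was 0.12, 0.12 and 0.30. The 10 genes most like CCL3 had r of 0.79 to 0.86 and none had a symbol. The 10 most like the second CCL3 gene had r of 0.71 to 0.75, among them OCSTAMP (0.74, with 0.76 in H-F and 0.74 in J calves), which takes part in the fusion of osteoclasts, and DHRS12 (0.74, with 0.74 and 0.73). These 2 genes also moved with it between libraries of the same calf, with r of 0.63 and 0.62, against a maximum of 0.33 for the 10 genes most like CCL5 and 0.16 for those most like CCL3. The genes were picked for their high r among all genes over 15 calves, so the values are a description and carry no test.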

How the data were processed

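The members, lists and alternatives were chosen with earlier results of these data known. The authors deposited raw read counts for genes and 92 spike-in sequences of 48 TruSeq libraries (paired end reads, FastQC 0.10.0, STAR alignment to UMD3.1, uniquely mapped reads with fewer than 2 mismatches, HTSeq-count in union mode). For STAR and HTSeq the version, and for counting the strand setting, were not given in the sources used here. Spike-in reads were 0.174% to 0.322% of a library and were left out.

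The study removed 1 J calf without naming it. J calf 85 was taken as that calf: without it, mean levels lay closest to those of the study's tables, and its libraries stood apart. Genes with over 1 CPM in at least 8 libraries (12677) were tested in R 4.3.3 with edgeR 4.0.16, TMM factors and its quasi-likelihood F test on 6 group means, adjusted by Benjamini-Hochberg over all genes. DEG had an adjusted p below 0.1 and a fold change of at least 1.5, and interactions had no fold threshold. Intervals used 39 residual degrees of freedom and came from the fit without calf as block, so they did not use the pairing of libraries by calf. Log2 CPM used a prior count of 2, except that the changes between days quoted for single calves used no prior count. At these depths counting error was 3.40% (CCL5) to 27.7% (second CCL3 gene) of the variance within calves. Correlations over calves used exact permutation of pairings, two-sided.

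The calf numbers in the labels pair libraries of the same animal. After removal of group means, their residuals over genes correlated at 0.404 to 0.846, and those of different calves at -0.577 to 0.298. Named genes were the 3 members, genes of the fixed lists, and the 10 genes with the highest pooled within-breed r for each member. Symbols came from the study's tables (700 of 800 listed genes), since the RefSeq table could not be matched to these identifiers. Alternatives used DESeq2 1.42.0, limma 3.58.1, edgeR's exact test, RLE factors, no filter, a prior count of 0.5, all 16 calves, leaving out each calf and calf as block. In counts simulated for H-F d -14 to d 8 over 12677 genes, 95.5% of 200 genes with a log2 change of 1 were recovered. The simulated libraries had no calf effect, and the changed genes were drawn from all levels. Their change was larger than the day changes of the 3 members, so it gives no recovery rate for these members. Python 3.11.15 was used for correlations. Some genes of the lists are not reported here by name.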

Additional observations from a re-analysis of the deposited data

Results flagged for a closer look

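J calf 85 was held out of the comparisons, and its libraries stood above those of all 7 other J calves for CCL5 on each day, at 39.9 CPM on d -14, 26.9 on d 1 and 27.9 on d 8. On d -14 this level lay above 3 of 8 H-F calves, on d 1 above 1 and on d 8 above 0. The second CCL3 gene was also above all other J calves in this calf on d 1 (4.69 CPM) and d 8 (1.22 CPM), and on d 1 above all 8 H-F calves. For CCL3 itself the calf lay inside the range of the other J calves on each day, at 2.07, 2.11 and 3.09 CPM. Among the 15 calves tested, J calf 85 not included, no calf stood apart by Dixon's test in any of the 18 sets of gene, breed and day.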

How the results depend on the processing

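The count of day changes called stayed at 0 of 18 and that of interactions at 0 of 4 under every alternative run, calf as replicate block included, and the counts of correlations passing adjustment stayed at 0. With only the groups compared in the fit, the second CCL3 gene fell below the filter in J calves and gave no value there. Leaving out each calf moved the breed differences between -1.23 and -1.03 for CCL5, between -1.15 and -0.82 for CCL3, and between -1.40 and -0.46 for the second CCL3 gene. Over all alternatives run, the fit with all 16 calves included, the CCL5 value on d -14 reached -0.978. Counts of matched breed DEG ranged from 20 to 29 on d -14, 16 to 24 on d 1 and 12 to 22 on d 8 when a calf was left out. Uncalled changes that switched sign had these ranges when a calf was left out. For CCL5 they were -0.063 to 0.13 in H-F from d -14 to d 8, -0.045 to 0.21 in H-F and -0.040 to 0.13 in J from d 1 to d 8, and -0.084 to 0.094 in J from d -14 to d 8. CCL3 in J from d -14 to d 1 had -0.069 to 0.25. The second CCL3 gene had -0.27 to 0.31 in J from d -14 to d 1 and -0.0058 to 0.19 in H-F from d -14 to d 8, where limma-voom gave -0.015. Interaction values were -0.035 to 0.095 and -0.14 to 0.087 for CCL5, and -0.28 to 0.037 and -0.30 to 0.026 for CCL3, on d 1 and d 8. With all 16 calves, the second CCL3 gene in J from d -14 to d 1 was 0.66, CCL5 in J from d -14 to d 8 was -0.076, its d 1 interaction -0.078, and r of CCL5 and the second CCL3 gene in J calves 0.28. On d -14 alone, r with the second CCL3 gene was -0.028 for CCL5 and -0.37 for CCL3 in H-F calves and -0.28 for CCL3 in J calves, and on d 1 alone the last was -0.11. On d 8 alone, r of CCL5 and the platelet list in J calves was -0.077. The cause of these switches was not tested.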
